A study of Mus musculus with 9 samples.

Results

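*Gata6* and 9 other genes of resident peritoneal macrophages (*Timd4*, *Icam2*, *Prg4*, *Selp*, *Vsig4*, *Tgfb2*, *Rarb*, *Wnt2* and *Ednrb*) were followed by symbol through a table of 55322 genes. They had been picked because they are high in peritoneal macrophages (PMs), so their levels in PMs against B cells are given as a description, without a test. The contrast between the B cell groups was not the stated ground of the choice, and it was tested over all genes. Earlier results of these data were known when the genes were chosen, so this contrast cannot be called independent of the choice.

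RNA was sequenced from 3 groups of cells of C57BL/6 (WT) mice, with 3 libraries in each. PMs were CD11b+F4/80+ cells that had been sorted from peritoneal cells of untreated (naive) animals. CD11b- and CD11b+ B cells came from the BM of mice that had received LPS, the endotoxin of Gram-negative bacteria, intraperitoneally (5 mg/kg) 48 h earlier. BM cells that carried TER119, NK1.1, Gr-1, CD8, CD4 or CD3 were removed before this sort. PMs therefore differed from both B cell groups in cell type, in tissue and in LPS treatment, and these cannot be told apart. By its choice of error bars the study treats the 3 libraries of a group as biological replicates, but neither it nor the labels tie a library to a mouse, so p-values measure the spread between these libraries.

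Large resident macrophages of the peritoneal cavity depend on GATA6, a zinc finger transcription factor that these cells induce in response to retinoic acid and that few other macrophages express. Surface proteins such as TIM4 (*Timd4*) and ICAM2 are used to recognize these macrophages by flow cytometry. They engulf apoptotic cells and take part in the clotting reactions that trap bacteria in the cavity.

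Reads counted on genes numbered from 18014658 to 29208721 in PM libraries and from 26174718 to 35251215 in B cell libraries. Levels are FPKM, reads scaled to exon length and to the reads on genes of the library, so that levels of different genes can be compared per length. The labelled cell types were checked by their markers. All 10 general macrophage markers, among them *Lyz2*, *Csf1r* and *Adgre1*, were higher in PMs than in CD11b- B cells, and all 8 B cell markers were lower, by limma on log2(FPKM + 1) with Benjamini-Hochberg adjustment at 0.05. Over all tested genes, 11.0% were higher and 25.8% lower in PMs in this comparison. Genes with a mean under 0.05 FPKM over the 6 libraries compared were not tested. A gene under 0.05 FPKM in 1 group passed this filter through the other group alone and could only be higher there, as was so for 2 of the 10 markers against CD11b- B cells, *Mertk* and *Fcgr1*. In the comparisons with PMs such genes are counted apart below. Between the B cell groups they are named where their values are given. In PM libraries the summed FPKM of the B cell markers was 125 to 223, against 11577 to 14510 in B cell libraries. Of the 10 mesothelial markers 7 had too few reads to be tested, and their sum in PMs was at most 0.72 FPKM. The summed FPKM of the 9 platelet markers was 2258 to 3290 in PMs, nearly all of it from *Pf4*. *Itga2b*, at 0.232 to 0.906 FPKM, was the other platelet marker higher in PMs than in CD11b- B cells, having passed the filter through PMs alone, while *Ppbp*, *Gp5*, *Gp6*, *Gp9*, *Treml1* and *Tubb1* had 0 reads in the 3 PM libraries. Endothelial markers summed to 1.13 to 3.07 FPKM in PMs. Of these *Egfl7*, at 0.880 to 1.74 FPKM, was higher in PMs than in both B cell groups, *Pecam1* was lower than in both, and *Cdh5* and *Emcn* were at 0.

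The promoter windows show which members carry letters that the 2 regulators among them, GATA6 and the retinoic acid receptor, could read. RefSeq windows on GRCm38.p6, from 250 bases before to 50 bases after the 1 start that RefSeq's table gives for a gene, were matched for 7 of the 10 members. For *Rarb*, *Ednrb* and *Wnt2* this start lies inside the span of the gene that is given below from GENCODE, and for *Rarb* far inside it, so the window is that of an internal transcript start. No window was searched for *Gata6*, *Icam2* and *Prg4*. Retinoic acid receptors pair with RXR and are known to bind direct repeats of a half-site. The repeat searched was a half-site (the letters AGGTCA, or the letters AGTTCA, or the letters GGTTCA, or the letters GGGTCA), then 5 bases of any kind, then another of the same 4 half-sites, on either strand. It occurred in 1 member, *Rarb*, and in 32 of 32851 promoters (0.0974%). The window below is chr14:16575477-16575576 on the minus strand, the 100 bases before this internal start, 5′ to 3′, with the repeat in capitals. The repeat begins 53 bases before the start.
Rarb: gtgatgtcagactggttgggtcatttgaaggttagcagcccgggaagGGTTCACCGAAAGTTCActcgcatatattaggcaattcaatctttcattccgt

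GATA factors bind short words around the letters GATA. The words AGATAA, with its variant AGATAG, and TGATAA, with its variant TGATAG, were searched on both strands, and 3 of the 7 members held at least 1 of them (*Timd4*, *Tgfb2* and *Wnt2*), against 29.8% of 32851 promoters. The stretches are 30 bases each on the strand of the gene, 5′ to 3′, with the word or its reverse complement in capitals. They come from chr11:46810792-46810821 (plus strand, *Timd4*, 6 bases after the start), chr1:186705971-186706000 (minus strand, *Tgfb2*, 2 bases after the start), and chr6:18030437-18030466 and chr6:18030666-18030695 (minus strand, *Wnt2*, 9 and 246 bases before the start).
Timd4: gacacacagatcCTATCAaaatgtccaagg
Tgfb2: agaatcgtgatgTTATCTgctggcagcagg
Wnt2, near word: tcttttgaaactTTATCAgtgagtctcacc
Wnt2, far word: ccggAGATAGctcttgccatcgtttcttcc
These matches describe the letters only. Binding was not measured.

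In PMs the 10 genes covered a range from *Prg4*, at a mean of 2021 FPKM and rank 23 of all genes, down to *Rarb*, at 1.87 FPKM and rank 9465. The order of the means was *Prg4*, *Icam2*, *Timd4*, *Ednrb*, *Vsig4*, *Selp*, *Wnt2*, *Tgfb2*, *Gata6* and *Rarb*. *Icam2* and *Timd4* were the only neighbours in this order whose ranges over the 3 PM libraries overlapped. For all 10 genes each PM library lay above all 6 B cell libraries, which is the pattern they were chosen for. Of all tested genes, 15.2% lay above CD11b- B cells without overlap and 12.4% above CD11b+ B cells.

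**Figure D1:**
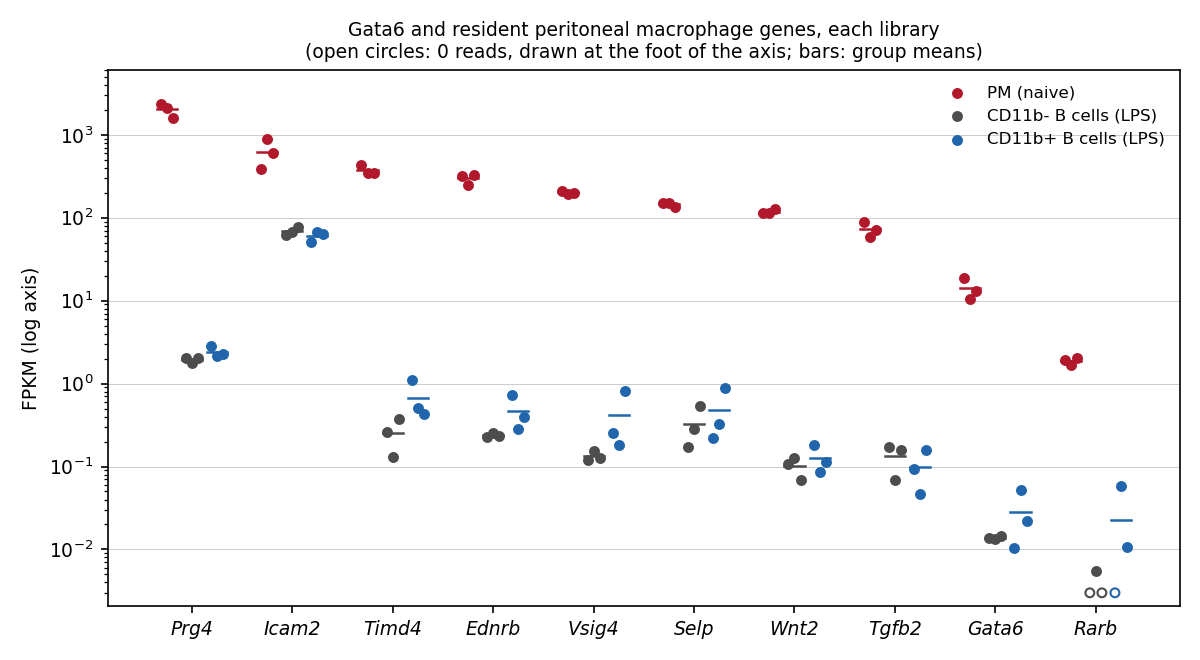
FPKM (log axis) of the 10 genes in each of the 9 libraries, with points for libraries, bars for group means and open circles for libraries with 0 reads. The 3 PM libraries lie above the 6 B cell libraries for all 10 genes, and *Icam2* is the only gene with more than 3 FPKM in any B cell library.

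*Gata6* (ENSMUSG00000005836, chromosome 18 from 11052064 to 11085635, plus strand, GRCm38) encodes the transcription factor itself. Its exons overlap the transcript *1010001N08Rik*, and the sources used here do not say if reads were counted by strand. The level in PMs was 18.5, 10.5 and 13.2 FPKM (14.1 ± 4.08, SD, n = 3), from 2174, 2001 and 1732 reads. CD11b- B cells had 3 reads in each library (0.0138, 0.0132 and 0.0144 FPKM), and CD11b+ B cells had 2, 9 and 5 reads (0.0105, 0.0528 and 0.0218 FPKM). The B cell groups overlapped, with the lowest and the highest of the 6 libraries both in CD11b+ B cells. Set against the PM mean, the CD11b- mean was 0.0980% (exact Poisson 95% interval on the reads, 0.0448 to 0.186%) and the CD11b+ mean 0.201% (0.115 to 0.327%). These intervals, and those below, were taken from the reads summed over the libraries of a group, with the PM mean held fixed. They cover counting error only and leave out the spread between libraries. The kit adds no molecular identifiers, so reads copied from the same molecule are counted separately, and the intervals can be too narrow even for counting error. In bulk RNA, fewer cells that carry a transcript and less of it per cell cannot be told apart.

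*Rarb* (ENSMUSG00000017491, chromosome 14 from 16430839 to 16819156, minus strand) encodes retinoic acid receptor beta. The gene shares exonic sequence with *Gm48162* and *Top2b*. It was the lowest of the 10 in PMs, at 1.94, 1.66 and 2.01 FPKM from 184, 256 and 214 reads. CD11b- B cells had 0, 1 and 0 reads, a share of 0.0969% of the PM mean with an interval of 0.00245 to 0.540%. In CD11b+ B cells there were 0, 8 and 2 reads, so that most of the mean share of 1.22% (0.587 to 2.25%) came from replicate 2, the library that also had the most reads of *Gata6* among B cells.

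Of the surface proteins, TIM4 binds phosphatidylserine on dying cells. *Timd4* (ENSMUSG00000055546, chromosome 11 from 46810800 to 46844332, plus strand) had 431, 346 and 348 FPKM in PMs. It had 0.262, 0.132 and 0.373 FPKM in CD11b- B cells (19, 10 and 26 reads) and 1.10, 0.510 and 0.431 FPKM in CD11b+ B cells (70, 29 and 33 reads). All 3 CD11b+ values were higher than every CD11b- value, and CD11b+ replicate 1 was the highest. The mean was 0.0682% of the PM mean in CD11b- and 0.181% in CD11b+ B cells.

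*Vsig4* (ENSMUSG00000044206, chromosome X from 96247203 to 96293438, minus strand) encodes a complement receptor of tissue macrophages. PM levels were 212, 194 and 201 FPKM, the closest agreement between PM libraries among the 10 genes (coefficient of variation 4.33%). CD11b- B cells had 0.121, 0.154 and 0.126 FPKM from 6 to 8 reads a library. CD11b+ B cells had 0.252, 0.180 and 0.822 FPKM from 11, 7 and 43 reads. The CD11b+ libraries were again all above the CD11b- libraries, but here replicate 3 was the highest.

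*Ednrb* (ENSMUSG00000022122, chromosome 14 from 103814625 to 103844402, minus strand) encodes the endothelin receptor type B, a G protein-coupled receptor. It had 315, 249 and 328 FPKM in PMs. CD11b- B cells had 0.225, 0.255 and 0.234 FPKM, and CD11b+ B cells 0.726, 0.287 and 0.399 FPKM. These groups did not overlap either, although CD11b+ replicate 2, with 32 reads, lay close to the CD11b- libraries, which had 32 to 38 reads.

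*Selp* (ENSMUSG00000026580, chromosome 1 from 164115264 to 164150026, plus strand, overlapping *Gm16548* and *Gm16587*) encodes P-selectin, which is best known from platelets and endothelium. It was at 152, 151 and 136 FPKM in PMs. In B cells it was at 0.170, 0.286 and 0.530 FPKM (CD11b-) and 0.224, 0.329 and 0.887 FPKM (CD11b+). The 2 groups overlapped, and replicate 3 was the highest in both. *Selp* in PMs stood beside *Pf4*, a platelet chemokine that was at 2257 to 3290 FPKM, *Itga2b* under 1 FPKM and the 6 platelet markers at 0 given above. Their part in the level of *Selp* was not tested.

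*Icam2* (ENSMUSG00000001029, chromosome 11 from 106377656 to 106388075, minus strand) encodes an adhesion ligand of the integrin LFA-1. It was the exception among the 10 genes, since B cells also had it at a high level. PM libraries had 382, 883 and 605 FPKM, the widest spread of the 10 genes (coefficient of variation 40.3%). CD11b- B cells had 62.3, 66.8 and 77.1 FPKM and CD11b+ B cells 51.3, 67.2 and 63.3 FPKM, from 2867 to 4708 reads a library. The B cell means were 11.0% and 9.72% of the PM mean, and the groups overlapped. PMs were 9.07-fold above CD11b- and 10.3-fold above CD11b+ B cells (13.8-fold and 15.7-fold with median-ratio scaling), whereas for the other 9 genes PMs were 81.6-fold to 1511-fold above a B cell mean.

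Among the secreted products, *Prg4* (ENSMUSG00000006014, chromosome 1 from 150449412 to 150466165, minus strand, overlapping *Tpr*) encodes lubricin, a mucin-like protein of joint and body cavity fluids. It was the most abundant of the 10 in PMs, at 2373, 2088 and 1604 FPKM. CD11b- B cells had 2.04, 1.75 and 2.04 FPKM (292, 262 and 280 reads) and CD11b+ B cells 2.83, 2.17 and 2.26 FPKM (356, 243 and 341 reads). The groups did not overlap, but the gap from 2.04 to 2.17 FPKM was small. With 834 and 940 reads in all, the shares were the most closely counted of the low ones: 0.0963% of the PM mean (0.0899 to 0.103%) and 0.120% (0.112 to 0.128%).

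*Tgfb2* (ENSMUSG00000039239, chromosome 1 from 186622792 to 186705989, minus strand, overlapping *Gm29491*) encodes a TGF-β ligand. It had 88.4, 59.0 and 71.6 FPKM in PMs. In B cells it had 0.171, 0.0693 and 0.156 FPKM (CD11b-) and 0.0941, 0.0462 and 0.157 FPKM (CD11b+). *Wnt2* (ENSMUSG00000010797, chromosome 6 from 17988940 to 18030585, minus strand), a Wnt ligand, had 115, 114 and 126 FPKM in PMs. It had 5 to 12 reads in each B cell library, 0.106, 0.127 and 0.0692 FPKM in CD11b- and 0.181, 0.0847 and 0.113 FPKM in CD11b+ B cells. The B cell groups overlapped for both ligands.

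Between PM libraries the 10 genes did not move as a block. *Gata6*, *Timd4* and *Tgfb2* had the same order, with replicate 1 the highest and replicate 2 the lowest, and *Vsig4* had it as well. *Icam2* ran the other way and was highest in replicate 2, the deepest PM library, while *Wnt2*, *Ednrb* and *Rarb* were highest in replicate 3. The highest PM library was 1.76 times the lowest for *Gata6* and 1.09 times for *Vsig4*. With 3 libraries no relation between the genes was computed.

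A further question was whether CD11b+ B cells, which the study describes as B cells with myeloid features, had more of these transcripts than CD11b- B cells. None of the 10 was called. Of the 8 that passed the filter of a mean of 0.05 FPKM, limma called 0 at an adjusted p of 0.05, and 0 had an unadjusted p under 0.05. *Gata6* and *Rarb* fell under the filter. edgeR called 0 of 6 tested and DESeq2 0 of 8 with an adjusted p. Over all 21778 genes 0.0689% were called, all 15 of them higher in CD11b+ B cells.

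On the log2(FPKM + 1) scale, which understates changes of low genes, the difference of CD11b+ minus CD11b- B cells was 0.40 for *Timd4* (standard error 0.20, limma adjusted p = 0.681), 0.30 for *Vsig4* (0.19, adjusted p = 0.727) and 0.24 for *Ednrb* (0.17, adjusted p = 0.727). *Prg4* differed by 0.21 (0.23, limma adjusted p = 0.744), *Selp* by 0.14 (0.21, adjusted p = 0.826), *Wnt2* by 0.03 (0.11, adjusted p = 0.928), *Tgfb2* by -0.04 (0.11, adjusted p = 0.906) and *Icam2* by -0.18 (0.15, adjusted p = 0.727). The median over the 8 was 0.18, beside 0.03 over all tested genes. In 4 of the 8, *Prg4*, *Timd4*, *Ednrb* and *Vsig4*, CD11b+ values were above CD11b- values without overlap, and in 0 of 8 they were below. Over all tested genes 8.63% lay above and 6.32% below. Without the pseudocount the CD11b+ mean was 3.12 times the CD11b- mean for *Vsig4*, 2.66 times for *Timd4*, 1.98 times for *Ednrb* and 1.24 times for *Prg4*. Without the CD11b+ library that was highest, the log2 difference was 0.10 for *Vsig4* (replicate 3 left out), 0.23 for *Timd4* and 0.12 for *Ednrb* (replicate 1 left out). With CD11b+ replicate 3 left out, that of *Timd4* was 0.51, at an unadjusted limma p under 0.05 (adjusted p = 0.564).

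General macrophage markers, a list also chosen with earlier results of these data known, were read in the same contrast. Of 10, 9, all except *Mertk*, were above CD11b- B cells without overlap in CD11b+ B cells, beside 8.63% of all tested genes. *Fcgr1* and *Mertk* passed the filter in this contrast through CD11b+ B cells alone and could only be higher there. *Fcgr1* is counted among the 9 and among the calls of DESeq2 below. *Itgam*, 1 of the 9, encodes CD11b, on which the groups were sorted. Their summed FPKM was 40.6 to 58.2 in CD11b- libraries and 317, 294 and 117 in CD11b+ replicates 1, 2 and 3. limma called 0 of 10 (*C1qb* had an adjusted p of 0.0525 and *C1qa* of 0.0563), and 9 had an unadjusted p under 0.05. Without CD11b+ replicate 3, the library with the lowest sum, limma called 2, *Csf1r* and *Lyz2*, and without CD11b- replicate 3 it called 1, *C1qb*. edgeR called 2 and DESeq2 7, beside 0.269% and 1.73% of all genes each tested. The summed level of the 10 genes followed here, most of it *Icam2*, was 65.4 to 80.7 FPKM in CD11b- and 56.7 to 70.9 FPKM in CD11b+ libraries. The part of other cells in the reads of either list was not tested.

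**Figure D2:**
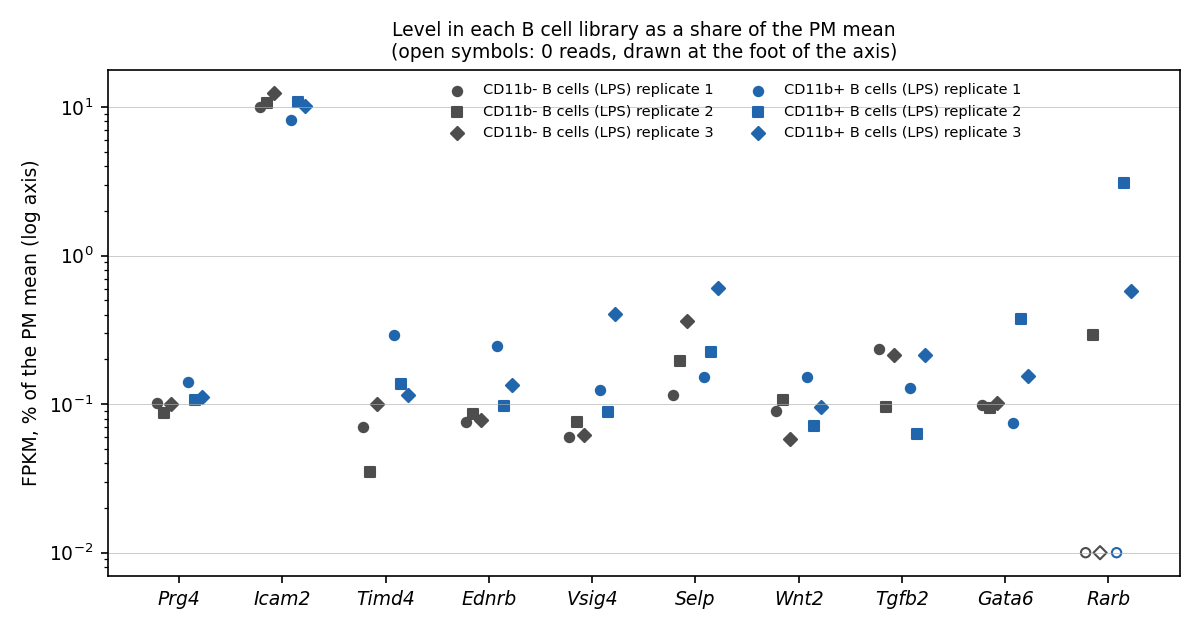
FPKM of the 10 genes in each B cell library as a percent of the PM mean (log axis), with symbols for replicates and open symbols for 0 reads. Most points lie between 0.05 and 0.5% in both groups, *Icam2* lies near 10%, and *Rarb* in CD11b+ replicate 2 reaches 3.10%.

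Expressed as shares of the PM level, the 10 genes took a narrow range in CD11b- B cells. The share was 0.0662 to 0.224% for all except *Icam2*, with a median of 0.0966% over the 10, and 7 of 10 were under 0.1%. In CD11b+ B cells the median was 0.191%, and *Icam2* and *Rarb* were the 2 genes at 0.4% or more. For the general macrophage markers the median was 0.132% in CD11b- B cells, close to that of the 10 genes, but 0.719% in CD11b+ B cells, where 9 of 10 were at 0.4% or more. *Lyz2* stood at 0.0911 and 0.501%, *Csf1r* at 0.0926 and 1.42%, *Adgre1* at 0.284 and 1.08% and *Itgam*, the gene of the sorting marker, at 0.176 and 0.548% of PM in CD11b- and CD11b+ B cells. *Gata6*, by comparison, stood at 0.0980 and 0.201%. Among all genes with a PM mean of at least 1000 FPKM and a CD11b- share under 1%, the median share was 0.0951% in CD11b- and 0.304% in CD11b+ B cells over 20 genes. *Prg4* is the 1 of the 10 genes at that level. For genes from 100 to 1000 FPKM in PMs, chosen in the same way (66 genes), the medians were 0.111% and 0.361%, and from 10 to 100 FPKM, the range of *Gata6* and *Tgfb2* (209 genes), they were 0.145% and 0.845%. From 1 to 10 FPKM, the range of *Rarb* (517 genes), they were 0.121% and 1.29%, beside 0.0969% and 1.22% for *Rarb* itself. The genes of each of these ranges were selected on a low CD11b- share alone, with the CD11b+ share left free. Part of their higher CD11b+ share can therefore follow from the selection. These shares are descriptions, and their difference between the lists was not tested. Both groups are divided by the same PM means.

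**Figure D3:**
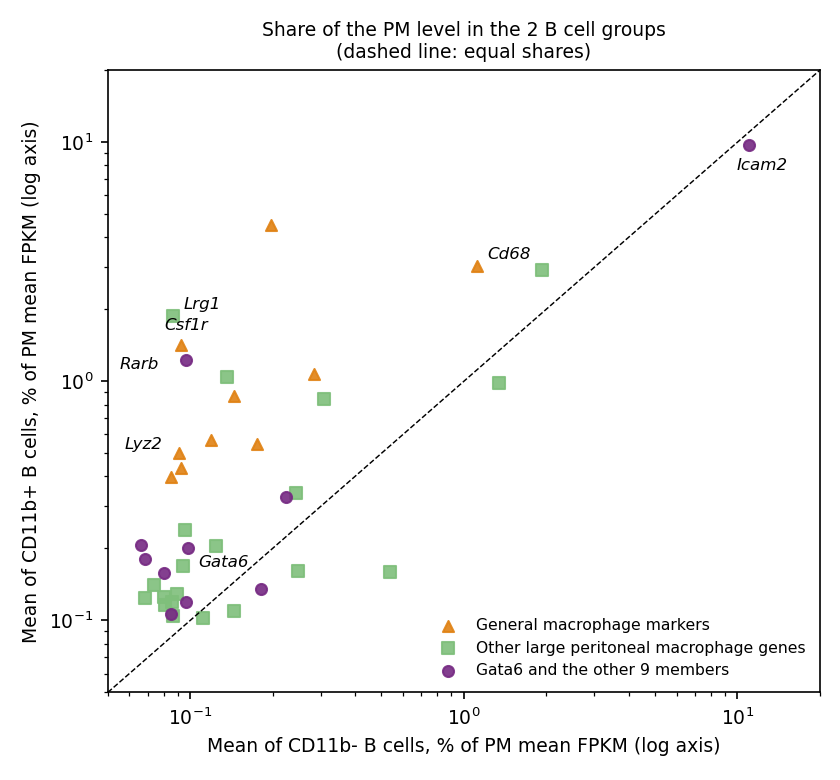
Mean FPKM as a percent of the PM mean in CD11b- (x axis) and CD11b+ B cells (y axis), both on log axes, for the 10 genes, 20 other genes of large peritoneal macrophages and 10 general macrophage markers. All 10 general markers lie above the line of equal shares, between 0.398 and 4.49% in CD11b+ B cells. Of the 10 genes, all except *Icam2* and *Tgfb2* lie above the line as well, and 8 lie under 0.4% in CD11b+ B cells.

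Further genes associated with large peritoneal macrophages, a list of 20 without the 10 genes above, took the same pattern. They were listed as genes known to be high in PMs, with earlier results of these data known, and *Aspa* and *Car6*, with *Lbp* against CD11b- and *Garnl3* against CD11b+ B cells, passed the filter on low values through PMs alone, so their levels in PMs are given as a description. Each of the 20 had all PM libraries above all B cell libraries. The median difference was 7.30 and 6.74 on the log2(FPKM + 1) scale, while the median of all tested genes was -0.24 and -0.25. The highest were *Saa3*, an acute-phase protein (5143 ± 2695 FPKM, n = 3), *Alox15*, a lipoxygenase (4282 ± 334 FPKM), *Cxcl13*, a B cell chemoattractant (1627 ± 261 FPKM), and *Fcna*, a ficolin of the complement system (1128 ± 208 FPKM). *F5* and *F10*, which encode clotting factors V and X, were at 108 ± 27.0 and 180 ± 39.6 FPKM.

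Between the B cell groups, limma called 0 of the 17 of these genes that passed the filter, with 2 at an unadjusted p under 0.05 (*Saa3* and *Lrg1*), edgeR called 0 and DESeq2 called 1, *Lrg1*, beside 0.0689%, 0.269% and 1.73% of all genes by limma, edgeR and DESeq2. CD11b+ values were above CD11b- values without overlap for 4 of the 17, beside 8.63% of all tested genes, and the median share of PM was 0.104% in CD11b- and 0.160% in CD11b+ B cells. *Lrg1*, a secreted glycoprotein, was at 0.0866 and 1.88% of its PM level (limma difference 2.43, adjusted p = 0.472). In the 3 CD11b+ libraries its share was 1.54, 3.86 and 0.244%, from 353, 787 and 67 reads, so that replicate 2 held most of the mean, and limma called it without replicate 3. *Cd9*, a tetraspanin, was at 1.93 and 2.93%. *Gata6* and *Timd4* were thus closer in their shares to *Fcna*, at 0.0939 and 0.170%, and *F10*, at 0.0955 and 0.239%, than to *Lrg1*.

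The families of the 10 genes showed whether a relative was also high in PMs. These lists, and those in the paragraphs after them, were also chosen with earlier results of these data known. Their counts of calls in PMs are therefore given as a description, also where the share over all genes stands beside them. Over the same libraries, *Gata1* to *Gata5* were at or near 0 in PMs, with at most 0.249 FPKM in a library (*Gata3*), and none was called higher in PMs. *Zfpm1*, which encodes the GATA cofactor FOG1, was lower in PMs than in CD11b- B cells (difference -1.16, limma adjusted p = 0.0174), a call lost with median-ratio scaling and with edgeR. Of the other receptors for retinoids, *Rara* (24.0 ± 8.59 FPKM), *Rarg* (15.0 ± 0.454) and *Rxra* (14.2 ± 2.95) were all above *Rarb* in PMs and higher there than in both B cell groups, although *Rarg* and *Rxra* passed the filter against CD11b- B cells through PMs alone. *Rxrb* was lower in PMs by limma against both, and the call against CD11b+ B cells was lost with median-ratio scaling, edgeR and DESeq2.

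Of the 18 genes of the retinoid pathway other than *Rarb*, 12 were tested against CD11b- B cells, of which limma called 8 higher and 1 lower in PMs, where 11.0% of all tested genes were higher and 25.8% lower. Against CD11b+ B cells 8 of 11 were higher and 1 lower, where 8.78% of all tested genes were higher and 21.5% lower. *Cyp26a1* and *Cyp26b1* passed the filter through PMs alone in both comparisons, and *Rarg*, *Rxra* and *Tgm2* did so against CD11b- B cells. Without these, 3 genes were higher against CD11b- and 6 against CD11b+ B cells. *Dhrs3*, a retinal reductase, had 215, 205 and 186 FPKM in PMs and 1.33 to 2.16 FPKM in B cells. *Aldh1a2*, an enzyme that makes retinoic acid, had 20.4, 28.9 and 29.7 FPKM in PMs and at most 0.977 FPKM in a B cell library. *Cyp26a1*, which degrades retinoic acid, had 7.39, 10.6 and 11.0 FPKM in PMs and at most 0.0578 FPKM in a B cell library. For each of these 3 genes the PM and B cell libraries were far apart. *Rdh10*, a retinol dehydrogenase, did not pass the test (limma adjusted p = 0.353 and 0.332).

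**Figure D4:**
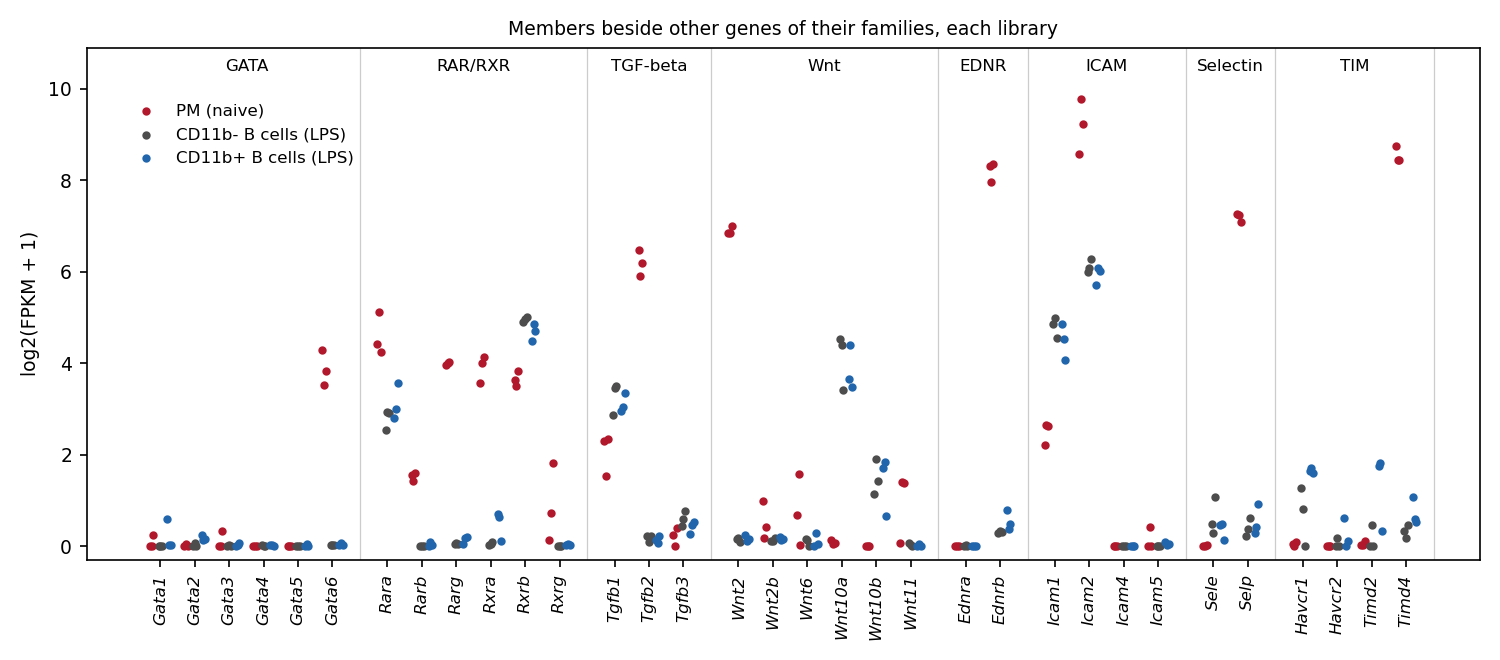
log2(FPKM + 1) in each library for 8 of the 10 genes and some of their relatives, grouped by family, where EDNR stands for endothelin receptors and the Wnt genes drawn are the 6 of 19 with a mean of at least 0.2 FPKM in a group. *Gata6*, *Tgfb2*, *Wnt2*, *Ednrb*, *Selp* and *Timd4*, and *Rarg* and *Rxra* among the relatives, have PM points above 3 and B cell points under 2.

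*Tgfb2* was the TGF-β ligand of PMs by level. *Tgfb1* was at 3.93, 1.90 and 4.04 FPKM in PMs and was lower there than in both B cell groups (differences -1.22 and -1.06, limma adjusted p = 0.0177 and 0.0306), calls that were both lost with median-ratio scaling and with edgeR. *Tgfb3* was under 0.4 FPKM in each PM library. Among receptors and signalling proteins, *Smad3* (25.4 ± 6.48 FPKM), *Smad4* (23.2 ± 0.926), *Tgfbr3* and *Ltbp3* were higher in PMs in both comparisons, 4 of 11 tested in each, where 11.0% and 8.78% of all tested genes were higher. *Ltbp3* passed the filter through PMs alone, which leaves 3. *Smad2* was lower in PMs in both (differences -1.53 and -1.43, limma adjusted p = 0.00484 and 0.0118), and the call against CD11b+ B cells was lost with median-ratio scaling. *Tgfbr1*, which encodes the type I receptor, did not differ past the threshold (adjusted p = 0.965 and 0.610), and *Tgfbr2* was lower in PMs only against CD11b- B cells by the test (adjusted p = 0.00253, and 0.137 against CD11b+).

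Of the 18 Wnt genes other than *Wnt2*, 7 were tested, and limma and edgeR called 0 of them higher in PMs in either comparison. DESeq2 called 3 higher in both, beside 19.1% of all genes against CD11b- and 15.3% against CD11b+ B cells, and by limma 1, *Wnt11*, was higher in each at an unadjusted p under 0.05. *Wnt10a* and *Wnt10b* ran opposite to *Wnt2*. *Wnt10a* had 9.69 to 22.0 FPKM in B cell libraries and at most 0.0900 FPKM in PMs, and *Wnt10b* had 0.567 to 2.72 FPKM in B cells and 0 reads in PMs. *Wnt11* was at 0.0403, 1.66 and 1.59 FPKM in PMs and did not pass the test (limma adjusted p = 0.0875 and 0.0904).

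Around *Ednrb*, the ligand genes *Edn1*, *Edn2* and *Edn3* and the other receptor gene *Ednra* had 0 reads in the 3 PM libraries and at most 0.0714 FPKM in a B cell library. *Ece1*, which encodes an enzyme that activates endothelin, was the 1 gene tested and was lower in PMs (differences -1.63 and -1.52, limma adjusted p = 0.00289 and 0.00576).

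Beside *Timd4*, the other TIM genes *Havcr1*, *Havcr2* and *Timd2* were at most at 0.0856 FPKM in PMs, while *Havcr1* reached 2.04 to 2.25 FPKM in CD11b+ B cells. Other receptors and bridging proteins for dying cells were higher in PMs in both comparisons, namely *Mertk* (32.2 ± 5.98 FPKM), *Axl* (19.9 ± 4.32), *Stab1* (20.5 ± 5.59), *Pros1* (85.0 ± 13.3) and *Mfge8* (16.8 ± 3.82). That is 5 of 9 tested against CD11b- and 5 of 10 against CD11b+ B cells, beside 11.0% and 8.78% of all tested genes. Against CD11b- B cells *Mertk*, *Axl* and *Stab1* passed the filter through PMs alone, which leaves 2 of the 5. *Havcr1* and *Timd2*, which passed through B cells alone, were lower in PMs than in CD11b+ B cells (limma adjusted p = 0.00166 and 0.0489), and the call of *Timd2* was lost with median-ratio scaling. *Axl* was at 0.656, 1.40 and 0.969 FPKM in CD11b+ and at most 0.0298 FPKM in CD11b- B cells, so that its share of PM in CD11b+ B cells was above that of *Timd4*. The difference of *Axl* between the B cell groups was not called by limma and was called by edgeR and DESeq2. In this contrast *Axl* passed the filter through CD11b+ B cells alone and could only be higher there.

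Among the partners of *Icam2* and *Selp*, *Selplg*, which encodes the P-selectin ligand PSGL-1, was at 273, 279 and 263 FPKM in PMs, and *Itgb2*, the β2 integrin chain, at 495, 609 and 566 FPKM. Both were higher in PMs than in either B cell group. *Itgal*, the αL chain of LFA-1, went the other way, at 0.532, 2.67 and 1.85 FPKM in PMs and 24.9 to 30.3 FPKM in B cells. *Icam1* (4.69 ± 0.922 FPKM in PMs) was also lower in PMs, while *Icam2* was higher there.

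*Gata6* was accompanied by other transcription factor genes of macrophages. Of 12 on the list, 8 were higher in PMs than in CD11b- B cells and 9 than in CD11b+ B cells, and 3 were lower in both, *Id3*, *Irf4* and *Irf8*. Over all tested genes 11.0% and 8.78% were higher and 25.8% and 21.5% lower. *Klf2* (420 ± 123 FPKM) and *Spi1* (96.7 ± 31.7) were both above *Gata6* in PMs. They were also high in B cells, at 64.4 to 181 and 32.7 to 51.1 FPKM, where *Gata6* had at most 9 reads in a library.

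Of the 12 markers of macrophages of other tissues, 4 of 8 tested were higher in PMs than in CD11b- and 3 of 9 than in CD11b+ B cells, beside 11.0% and 8.78% of all tested genes, and 1 was lower in both. *Clec4f* (Kupffer cells), *Sall1* (microglia) and *Car4* (alveolar macrophages) had 0 reads in PMs, and *Siglecf* and *Spic* were under 0.05 FPKM. *Tmem119* (0, 2.14 and 1.39 FPKM) and *Pparg* (0.0752, 2.82 and 0.0168 FPKM), which mark microglia and alveolar macrophages, had reads in 2 and 3 of the PM libraries. *P2ry12*, a microglial receptor gene at 5.71, 1.91 and 2.22 FPKM, was higher in PMs than in both B cell groups, as were *Marco* (331 ± 59.1 FPKM) and *Cd5l* (523 ± 53.2 FPKM). *Cx3cr1* (2.24, 0.570 and 0.825 FPKM) was higher by limma against CD11b- B cells. In that comparison *P2ry12* and *Cx3cr1* passed the filter through PMs alone. *Spic*, the transcription factor of red pulp macrophages, passed through B cells alone and was lower in PMs than in both groups. Between the B cell groups *Spic* had a mean of 0.518 FPKM in CD11b- and 1.88 FPKM in CD11b+ B cells, and *Treml4* had 0 reads in CD11b- and a mean of 0.941 FPKM in CD11b+ B cells. DESeq2 called these and *Marco* and *Cd5l* higher in CD11b+ B cells, 4 of 7 with an adjusted p, while limma called 0 of 8, with the same 4 at an unadjusted p under 0.05, and edgeR 0 of 5. Of the 4, *Treml4* had passed the filter through CD11b+ B cells alone and could only be higher there. Over all genes DESeq2 called 1.73%, limma 0.0689% and edgeR 0.269%. Genes linked to the other, small macrophages of the cavity were also found. *Retnla* was at 6247, 7557 and 3808 FPKM, *Lyve1* at 16.2, 30.4 and 31.2 FPKM, *Ccr2* at 15.6, 16.2 and 13.2 FPKM and *Clec10a* at 23.7, 25.7 and 30.1 FPKM in PMs. Of the 11 genes of this list 8 were higher in PMs in both comparisons, beside 11.0% and 8.78% of all tested genes. *Cd226* and *Folr2* passed the filter through PMs alone in both, and *Ccr2*, *Lyve1*, *Clec10a* and *Mgl2* did so against CD11b- B cells, which leaves 2 higher against CD11b- and 6 against CD11b+ B cells. The other 3, *Ciita*, *H2-Aa* and *H2-Eb1*, which act in MHC class II expression, were lower in PMs, with the calls of *H2-Eb1* lost under median-ratio scaling. The sort did not separate large from small peritoneal macrophages, and the share of each in the PM libraries was not tested.

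The genes whose pattern was most like that of *Gata6* were found by the root mean square difference in log2(FPKM + 1) over the 9 libraries. The 8 nearest were *Tox2* (0.0470), *Cav1* (0.0996), *1700047M11Rik* (0.123), *Adamtsl5* (0.132), *Igf1* (0.139), *Ptges* (0.146), *Gm35853* (0.149) and *Slc7a2* (0.154). *Tox2*, an HMG-box protein gene, had 18.1, 9.58 and 13.1 FPKM in PMs beside 18.5, 10.5 and 13.2 for *Gata6*, and 1 to 5 reads in each B cell library. *Cav1*, which encodes caveolin-1, had 17.6, 9.08 and 11.2 FPKM in PMs and 0 to 4 reads in each B cell library. Like *Gata6*, these 2 genes had few reads in B cells and a like level in PMs, which is what the measure selects. Of the 8, 3 were above CD11b- B cells without overlap in CD11b+ B cells, *Adamtsl5*, *Igf1* and *Ptges*. Only *Igf1* and *Ptges* of the 8 were tested in this contrast, so the 8.63% of all tested genes is not on the same base. *Adamtsl5*, a gene of the ADAMTS-like family, had 4, 4 and 3 reads in CD11b+ and 1, 2 and 2 in CD11b- B cells and fell under the filter. *Igf1*, a growth factor gene, had 51, 62 and 45 reads in CD11b+ and 3, 11 and 17 in CD11b- B cells. *Ptges*, a prostaglandin E synthase gene, had 12, 13 and 11 reads in CD11b+ and 2, 0 and 1 in CD11b- B cells. Neither *Igf1* nor *Ptges* passed the test (limma adjusted p = 0.688 and 0.727). Both had a CD11b- mean under 0.05 FPKM, so they passed the filter through CD11b+ B cells alone and could only be higher there.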

How the data were processed

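Per the labels, reads of SMART-seq HT cDNA libraries were trimmed (Trim Galore 0.4.4, Trimmomatic 0.36, cutadapt 1.16), mapped to GRCm38 with STAR 2.7.2b and counted on genes with featureCounts 1.6.1. The submitters' processing notes also name GRCm39 and DESeq2 1.20.0. The authors deposited FPKM for 55322 genes in each of the 9 libraries. Their second table, a normalized signal, gives 11063 genes as counts over the size factor of the library, and a deposited cluster number per gene, of other kind, which was not used. The sources used here do not say if reads were counted by strand.

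From here on values were computed from the deposited FPKM. FPKM times exon length gave whole reads for 100% of values above 0, within 0.05 of a read, and the second table gave equal reads. limma 3.58.1 (R 4.3.3; lmFit, eBayes with a trend, two-sided) was fitted to log2(FPKM + 1) of the 6 libraries of a comparison, for genes with a mean of at least 0.05 FPKM, adjusted by Benjamini-Hochberg over all of them with a threshold of 0.05. edgeR 4.0.16 and DESeq2 1.42.0 (genes with at least 10 reads) on the recovered reads were alternatives, beside those in the closing section. The scripts were tested on simulated data first. Libraries were grouped by their titles. Positions are those of GENCODE M21 (GRCm38) by gene identifier, since the positions in the deposited tables differ from them.

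The members and the 16 lists (180 genes) were chosen with earlier results of these data known. Besides the members, the genes named are the 8 nearest to *Gata6*, the genes of the large peritoneal macrophage list, and in each other list those with the 3 highest means in PMs or the 2 highest in B cells. Other list genes are named because they passed the test or stood at 0, and were chosen after their values were seen. Some list genes are not reported here by name.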

Additional observations from a re-analysis of the deposited data

How the results depend on the processing

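No member was called between the B cell groups under any alternative. The order of PMs above B cells is what the 10 members and the 20 other large peritoneal macrophage genes were chosen for, so that its recurrence under the alternatives says nothing of its stability. The number of all genes called between the B cell groups, 15, did move. It was 37 with a pseudocount of 0.1, 2 with no filter on FPKM, 31 for genes with at least 1 FPKM on average, 36 with all 9 libraries in one fit, 42 with edgeR, 392 with DESeq2, and 3 to 40 with 1 library left out (40 without CD11b+ replicate 3, and 3, 4 and 7 without CD11b- replicates 1, 2 and 3, 5 without CD11b+ replicate 1 or 2). With a replicate block by the number in the descriptions it was 0, and with a block by the number in the titles 16, and no member was called with either. Libraries with the same title number did not all deviate together (r = 0.287, -0.02 and 0.209 over genes between CD11b+ and CD11b- B cells), so the numbers were not taken to pair the samples. The pairs with r = 0.287 and 0.209 also share a number in the descriptions, and the other pair does not. With 2 such pairs, and no source that says what the numbers mark, this was not taken as pairing either.

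With 1 library left out, the log2 difference of *Selp* between the B cell groups ran from -0.050 (without CD11b+ replicate 3) to 0.26, that of *Wnt2* from -0.00225 (without CD11b+ replicate 1) to 0.0592, that of *Vsig4* from 0.10 to 0.41, that of *Timd4* from 0.23 to 0.51, that of *Ednrb* from 0.12 to 0.33, that of *Prg4* from 0.13 to 0.26, that of *Tgfb2* from -0.0834 to -0.00794 and that of *Icam2* from -0.26 to -0.0695 (without CD11b+ replicate 1). Over all alternatives the adjusted p of the 8 tested members stayed between 0.471 (*Timd4*) and 0.996 (*Wnt2*). Median-ratio scaling shifted the median of all genes in PMs against CD11b- B cells from -0.24 to -0.06, and the calls from 2306 higher of 7710 to 3152 of 6482. Against CD11b+ B cells they went from 1940 of 6700 to 2661 of 5427. It raised the PM means of 8 members by more than their SD (that of *Prg4* from 2021 to 2552 FPKM). The causes of these shifts were not tested. Members with under 20 reads a library in B cells, *Gata6*, *Rarb* and *Wnt2* among them, cannot show a small difference at this depth.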
